A study of Mus musculus with 22 samples.

Results

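The genes described here encode the proteins of both ribosomes of the cell. They were taken by symbol from arrays of mouse terminal ileum: 47 genes named Rpl or Rps plus a digit form the cytosolic class, and 76 genes named Mrpl or Mrps form the mitochondrial class. Together they are 123 of the 18193 genes with a probe set of their own on the array. The symbol rule itself uses no measured change, but it was chosen with earlier results of these data known. Each gene is represented by the probe set of highest mean over the 22 arrays among those annotated with exactly 1 symbol. The animals were NOD mice, which develop autoimmune diabetes spontaneously. Antibiotics were given either below a therapeutic dose (STAT, 3 females and 3 males) or in therapeutic pulses (PAT, 3 females and 5 males), and 3 females and 5 males were controls. Drugs, doses and ages: not given in the sources used here. Labels do not say whether each array came from its own animal, so p-values reflect only how these samples differ, and that spread may be technical.

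Cytosolic ribosomes translate the messenger RNAs of the nucleus, and most of their protein genes begin with a run of pyrimidines (a terminal oligopyrimidine, or TOP, start) through which mTORC1 signalling controls their translation. Mitochondrial ribosomes are built from nuclear-encoded proteins that are imported into the organelle, where they assemble on mitochondrial ribosomal RNA. They translate the few messages of the mitochondrial genome, which encode membrane subunits of the respiratory chain and of ATP synthase. In the ileum, the epithelium renews itself from dividing crypt cells, and both kinds of ribosome are needed for that growth.

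The classes differed in how often a pyrimidine run stood at the annotated start, though most windows of both lacked one. RefSeq windows from 250 bases before to 50 after the annotated start (build GRCm38.p6) were matched for 41 cytosolic and 67 mitochondrial members. A start with C followed by at least 4 pyrimidines was found in 7 cytosolic members (17.1%), in 0 mitochondrial members and in 3.01% of the 27025 genes of the table. An annotated start that is off by a few bases misses this pattern. The 7 cytosolic starts are shown because they carry a pattern found in 0 mitochondrial members. Each line has 30 bases of the coding strand, 5′ to 3′, with the annotated start and its pyrimidine run in capitals.
Rpl14, chr9:120571505-120571534, plus strand: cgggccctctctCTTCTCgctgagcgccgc
Rpl35, chr2:39005114-39005143, minus strand: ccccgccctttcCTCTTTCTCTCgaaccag
Rpl38, chr11:114668568-114668597, plus strand: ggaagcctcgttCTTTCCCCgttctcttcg
Rps10, chr17:27635227-27635256, minus strand: ccgcgcacgcccCTTCCTTTCCagcctccg
Rps18, chr17:33955648-33955677, minus strand: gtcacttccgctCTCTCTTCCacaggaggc
Rps27, chr3:90213631-90213660, minus strand: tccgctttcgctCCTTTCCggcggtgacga
Rps6, chr4:86857350-86857379, minus strand: cggaagtcgggcCTCTTTTTCgtgacgcct

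The ETS motif ACTTCCG, the core read by GABP and related factors, stood on either strand in 31.7% of cytosolic and 25.4% of mitochondrial windows, against 7.20% of all genes. Among the 12 mitochondrial members that rose with PAT in females (below), 11 had a window and 5 of them (45.5%) held it. These 5 sites are shown because they belong to the genes on which the comparisons turn, with the motif or its reverse complement in capitals.
Mrpl16, chr19:11770320-11770349, plus strand: aagtttcctctACTTCCGtcaggactctat
Mrpl3, chr9:105053239-105053268, plus strand: gagaaacggacCGGAAGTggcccggctgtg
Mrpl47, chr3:32736768-32736797, minus strand: cacgccgccagCGGAAGTgacctcgtggac
Mrps22, chr9:98601671-98601700, minus strand: acctctcgagcCGGAAGTtgctctatcgat
Mrps27, chr13:99344726-99344755, plus strand: gtggtaggaccACTTCCGgcggaggcgggc

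Other motifs were also searched on both strands. The palindromic NRF1 motif was in 12.2% of cytosolic, 17.9% of mitochondrial and 5.19% of all windows. The YY1 motif AAGATGGCG was in 7.32%, 11.9% and 1.64%, in the same order. The Sp1 box GGGCGG was in 56.1%, 50.7% and 38.2%, and TATAAA in 12.2%, 7.46% and 15.7%. A match describes the letters of the window and shows no binding.

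Values are log2 expression levels, so a difference of 1 is a doubling. Levels of different probe sets cannot be ranked as abundance, but they show which members have a signal to compare. The cytosolic members had mean levels of 3.80 to 14.22 with a median of 13.53, and 33 of the 47 had a mean of at least 12. The brightest probe sets were those of Rps29, Rpl41, Rpl37a and Rps28, and the highest value on any array was 15.04. Rps16 (mean 3.80), Rpl3l (3.95) and Rpl39l (4.16) were the members under 6. Rpl3l is a paralog known from muscle and Rpl39l one known from testis, whereas Rps16 is a core small-subunit protein whose own probe set was dim here. The mitochondrial members ran from 7.69 to 11.42 with a median of 9.95, and 0 of the 76 were under 6. Arrays of one group differed little in the cytosolic members, with a median SD of 0.063, against 0.12 for mitochondrial members and 0.16 for all genes. A mean of at least 13 was reached by 30 of the 47 cytosolic members, against 169 of all 18193 genes. Whether signal so near the top of the scale narrows differences and SDs was not tested.

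The rule goes by symbol alone, so it left some ribosomal proteins out and took at least 2 unusual genes in. A total of 32 symbols of the rule, Rpl3, Rpl5 and Rps12 among them, stood only on probe sets with several symbols. Rps19bp1 binds Rps19 and is no ribosomal protein, and Rps4l is listed in RefSeq as a transcribed pseudogene. Both are counted with the cytosolic class. Large and small subunits are told apart here by the L or S of the symbol alone. That letter need not give the subunit in which a protein sits.

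The tissue label was checked against markers: 7 of 7 ileal enterocyte markers were measured, with group means between 12.25 and 13.03. The column medians of the arrays lay between 5.68 and 5.79, and 0 of 231 pairs of arrays were identical. STAT males 2 and 3 stood apart in 1 measure of RNA integrity: the 3′ minus 5′ difference of the beta-actin control probe sets was 0.59 and 0.60 there and 0.28 to 0.42 on the other 20 arrays. By the Gapdh control probe sets they read -0.037 and -0.077, within the range of the other 20 (-0.265 to -0.025). The top of that range was PAT female 1. Among male arrays they were the highest, with the others at -0.265 to -0.082.

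PAT was compared with control to learn how therapeutic pulses changed ileal expression, first with both sexes given equal weight. Of the 76 mitochondrial members 9 rose and 0 fell (limma, adjusted p under 0.05 over 18193 genes), which is 11.8%. Over all genes 4.61% rose and 6.38% fell. The median difference was 0.08 for mitochondrial members, 0.02 for cytosolic members and -0.005 for all genes. In the cytosolic class 0 genes rose and 1 fell, the pseudogene Rps4l. Among the mitochondrial risers 6 were of the small subunit (Mrps6, Mrps18b, Mrps27, Mrps2, Mrps10 and Mrps26) and 3 of the large (Mrpl47, Mrpl17 and Mrpl3).

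Mrps6, a small-subunit protein with a bacterial S6 counterpart, had levels of 9.86, 9.73 and 9.81 in control females and 10.03, 10.36 and 10.29 in PAT females. In males it read 9.91, 10.03, 9.93, 9.98 and 9.87 in controls and 10.38, 10.15, 9.98, 10.08 and 10.26 with PAT. The PAT females lay above every control female, while PAT male 3 lay within the range of the control males. The difference was 0.33 ± 0.066 (SE), or 1.26-fold, averaged over the sexes (limma adjusted p = 0.0029). It held its call in all 16 fits that left out 1 array of these groups, with differences of 0.30 to 0.38. Its other probe set gave 0.32.

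Mrps18b, one of 3 Mrps18 paralogs, read 9.33, 9.08 and 9.02 in control females and 9.62, 9.72 and 9.57 in PAT females. In males the controls read 9.17, 9.42, 9.15, 9.28 and 9.15 and the PAT arrays 9.44, 9.35, 9.06, 9.50 and 9.62. The female groups did not overlap and the male groups did. Averaged over the sexes the difference was 0.33 ± 0.078 (limma adjusted p = 0.0091), and it too was called in all 16 fits without 1 array. Its paralogs did not pass the test, with differences of -0.01 for Mrps18a and -0.06 for Mrps18c.

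Mrpl47, a large-subunit protein of the L29 family, differed by 0.29 ± 0.079 (limma adjusted p = 0.021), and Mrps27, an RNA-binding small-subunit protein, by 0.29 ± 0.079 (limma adjusted p = 0.021). A further probe set of Mrpl47 went the other way, at -0.09, and so did one of Mrpl17 (-0.08), Mrpl3 (-0.08), Mrps10 (-0.03) and Mrps26 (-0.05). The count of 9 became 5 without control female 2 or without control female 3, 4 without PAT female 1 or PAT female 2, and 1 with the 3′ minus 5′ difference of the Gapdh control probe sets as a covariate. That RNA measure was -0.20 to -0.09 in control females against -0.11 to -0.03 in PAT females, and -0.26 to -0.20 in control males against -0.23 to -0.08 in PAT males.

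**Figure D1:**
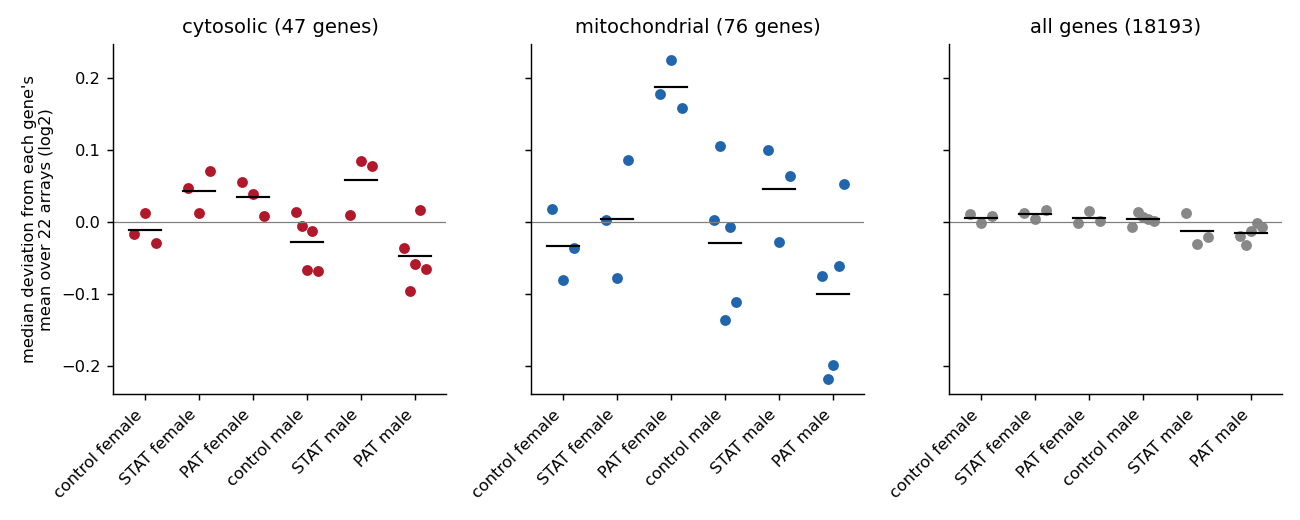
Median deviation of each class from its genes' means over the 22 arrays (log2, vertical axis) for every array, by group; points are arrays and bars are group means. In the mitochondrial panel the 3 PAT females lie at 0.16 to 0.22, while PAT males lie between -0.22 and 0.05; the cytosolic panel spans a much narrower range.

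In females the mitochondrial rise with PAT was wide. Of the 76 mitochondrial members 12 rose and 0 fell, 15.8% against 2.27% of all genes that rose and 1.08% that fell. A further 59 had a positive difference without passing the test, which makes 71 of 76. Over all genes 413 rose and 197 fell, or 340 and 372 when the quantile normalization was repeated, which left 70 of 76 mitochondrial members positive. The median difference was 0.23, against 0.04 for the cytosolic members and -0.006 for all genes (0.03 for genes with a mean of at least 6). All 3 PAT females lay above all 3 control females in 57 of 76 mitochondrial members (75.0%) and 13 of 47 cytosolic members (27.7%). The same held for 14.7% of all genes and 20.5% of those with a mean of at least 6. The reverse held in 1 member, Mrpl27, against 13.2% of all genes. In the cytosolic class 0 of 47 members passed the test, while 5 had an unadjusted p under 0.05.

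The class medians by array show the same separation. As deviations from each gene's mean over 22 arrays, the mitochondrial medians averaged 0.19 ± 0.034 (SD, n = 3) in PAT females, -0.03 ± 0.049 (n = 3) in control females and 0.003 ± 0.082 (n = 3) in STAT females. The lowest PAT female (0.16) lay above the highest control female (0.02) and the highest STAT female (0.09). For cytosolic members the PAT females averaged 0.03 ± 0.025 and the control females -0.01 ± 0.021.

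In the small subunit, Mrps28 read 9.86, 9.70 and 9.56 in control females and 10.13, 10.21 and 10.24 in PAT females, and rose by 0.48 ± 0.106 (limma adjusted p = 0.018). Mrps10, which has a bacterial S10 counterpart, read 9.30, 9.09 and 9.04 in controls and 9.70, 9.62 and 9.54 with PAT, a rise of 0.48 ± 0.112 (limma adjusted p = 0.026). Mrps18b rose by 0.49 ± 0.123 (limma adjusted p = 0.032), on the levels already given. For none of these 3 genes did the groups overlap. Mrps2 read 9.12, 9.001 and 9.08 against 9.47, 9.70 and 9.37. Mrps22, a protein without a bacterial counterpart, read 9.54, 9.45 and 9.57 against 10.005, 9.89 and 9.85. These genes rose by 0.45 and 0.40. Mrps6 and Mrps27 completed the 7 called of the 29 members with a small-subunit symbol.

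Of the 47 members with a large-subunit symbol 5 rose. Mrpl47 read 9.95, 9.88 and 9.95 in control females and 10.45, 10.37 and 10.34 in PAT females, a rise of 0.46 ± 0.124 (limma adjusted p = 0.045). Mrpl17 read 10.05, 10.16 and 9.99 against 10.59, 10.52 and 10.44. Mrpl3, whose bacterial relative L3 lies near the peptidyl transferase centre, read 9.67, 9.59 and 9.53 against 9.98, 10.01 and 9.93. Again every PAT female was above every control female. Further probe sets of 3 called members went the other way in females, at -0.01 for Mrps10, -0.15 for Mrpl17 and -0.10 for Mrpl3, while those of Mrpl47, Mrps2 and Mrps6 were positive. Mrpl16 rose by 0.36 and Mrpl32 by 0.29. Mrpl32 is matured by the mitochondrial AAA protease before it joins the ribosome. The median difference of the large subunit, 0.23, equalled that of the small subunit to 2 decimals.

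Members with known roles outside translation had positive differences in PAT females that did not pass the test. Mrpl12, which also binds the mitochondrial RNA polymerase, read 11.02, 11.00 and 10.97 in control females and 11.36, 11.16 and 11.21 in PAT females, a difference of 0.25 ± 0.110 (limma adjusted p = 0.20). Mrpl41, linked to apoptosis, differed by 0.43 ± 0.127 (limma adjusted p = 0.064), and Mrps30, also known as a programmed cell death protein, by 0.31 ± 0.096 (limma adjusted p = 0.069). Mrps12, a core protein of the decoding centre, also missed it and differed by 0.18 ± 0.089 (limma adjusted p = 0.25). The 5 members below 0 were Mrpl27 at -0.17, Mrpl9, Mrpl24, Mrps36 and Mrps21, and none of the 5 passed the test in limma.

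Among cytosolic members the largest differences in PAT females were outside the bright core. Rpl14, a large-subunit protein, read 7.91, 7.59 and 7.73 in control females and 8.16, 8.18 and 8.11 in PAT females, a difference of 0.41 ± 0.119 (limma adjusted p = 0.060). Rpl27a read 9.22, 10.02 and 9.96 against 9.27, 9.02 and 8.59, a difference of -0.77 ± 0.242 (limma adjusted p = 0.074), and its groups overlapped. Rps19bp1 differed by 0.30 ± 0.101 (limma adjusted p = 0.097). The 33 cytosolic members with a mean of at least 12 lay between -0.05 and 0.14. Those with functions outside the ribosome were in that narrow band: 0.06 for Rpl11, which binds Mdm2, 0.07 for Rpl13a, 0.07 for Rps3 and 0.07 for Rps19.

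The calls in females rested on few arrays. The 12 became 4 without control female 1, 2 without PAT female 1, and 0 when control female 2, control female 3 or PAT female 2 was left out, while the median stayed between 0.21 and 0.26. They also became 0 with the Gapdh 3′ minus 5′ covariate, where the median was 0.22, and 2 when the fit held the groups compared alone. Proliferating crypt cell markers moved with the mitochondrial members. Their mean level (6 of 7 listed genes measured) was 9.65 to 9.95 in PAT females and 9.14 to 9.46 in control females, and 6 of 6 were positive with a median of 0.51 and 0 called. Enterocyte markers averaged 12.74 to 13.23 in PAT females and 12.72 to 12.75 in control females. Of these Apoa4 was called higher, by 2.03 ± 0.544 (limma adjusted p = 0.045). Slc10a2, Slc51a and Vil1 were negative, and no enterocyte marker but Apoa4 was called. The B cell markers (4 of 5 measured) averaged 4.78 to 6.92 in PAT females and 4.69 to 4.93 in control females. The PAT females were uneven in these markers, with a mean of 5.51 ± 1.22 (SD, n = 3) against 4.81 ± 0.12 (n = 3) in control females. The part of these cells in the result was not tested. In whole tissue, fewer cells of a type and less RNA per cell cannot be told apart.

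**Figure D2:**
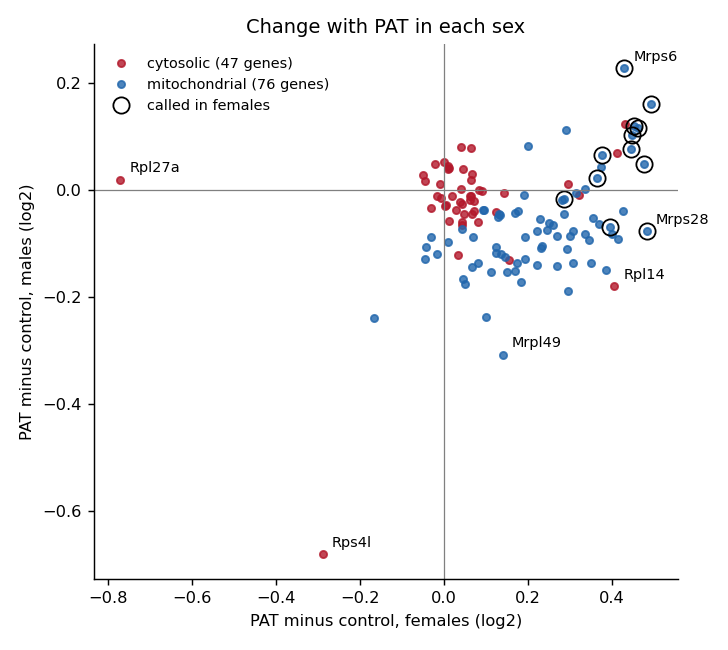
PAT minus control (log2) in females (horizontal) and males (vertical) for each of the 123 genes; ringed points were called in females. Mitochondrial genes lie mostly to the right of 0 and below 0, with medians of 0.23 in females and -0.08 in males, and cytosolic genes cluster near the origin except Rps4l, Rpl27a and a few others.

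In males the mitochondrial class did not rise with PAT. Of the 76 mitochondrial members 0 rose and 1 fell, against 2.34% and 6.68% of all genes, and 13 of 76 had a positive difference. The median was -0.08, the same as for all genes with a mean of at least 6 (-0.08). Every PAT male lay above every control male in 0 members of either class, against 1.75% of all genes, and below them in 0 cytosolic members and 1 mitochondrial member, Mrpl27, against 5.29%. Repeating the quantile normalization moved the class median to -0.03, with 26 of 76 positive, and the calls over all genes from 426 higher and 1215 lower to 592 and 803. In the cytosolic class 0 rose and 1 fell, with a median of -0.01.

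Mrpl49 was the mitochondrial member that fell. It read 9.57, 9.64, 9.32, 9.50 and 9.29 in control males and 9.20, 8.996, 9.14, 9.04 and 9.42 in PAT males. PAT male 5 lay within the control range and the other 4 lay below it. The difference was -0.31 ± 0.086 (limma adjusted p = 0.029), and its other probe set gave -0.31 as well. Mrpl48 had the next smallest p, with a difference of -0.24 ± 0.079 (limma adjusted p = 0.062). Mrps6 went the other way, at 0.23 ± 0.081 (limma adjusted p = 0.082).

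Rps4l, the pseudogene related to Rps4x, was the cytosolic member that fell. It read 9.75, 9.67, 9.45, 9.41 and 9.60 in control males and 9.70, 8.89, 8.89, 8.49 and 8.51 in PAT males. PAT male 1 lay among the controls and the other 4 lay below them all. The difference was -0.68 ± 0.182, or 1.60-fold lower (limma adjusted p = 0.023). In females the difference was -0.29 ± 0.235 (limma adjusted p = 0.53), and averaged over the sexes -0.48 ± 0.148 (limma adjusted p = 0.039). Rps4x, which encodes the ribosomal protein itself, differed by 0.02 ± 0.048 in males (limma adjusted p = 0.84).

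The male calls also rested on few arrays. Rps4l lost its call without control male 1 or 2 or without PAT male 2, 4 or 5. Mrpl49 lost its call in 5 of the 10 fits without 1 array, and the mitochondrial count ran from 0 to 2: it was 2 without PAT male 1, PAT male 3 or control male 5, and 0 without control male 1, 2 or 4 or PAT male 2 or 4. Both calls were lost with the Gapdh covariate and when the fit held only the groups compared. The crypt markers averaged 8.75 to 9.58 in PAT males and 9.13 to 9.58 in control males, with 2 of 6 positive and a median of -0.23. Paneth cell markers were negative in 5 of 5, with Mmp7 and Pla2g2a called lower. Enterocyte markers were positive in 7 of 7, with Apoa4 called higher, and averaged 12.68 to 13.21 in PAT males and 12.51 to 12.72 in control males. Smooth muscle and fibroblast markers were negative in 5 of 5 each with 0 called. The part of any of these in the result was not tested.

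The test of the sex difference itself called 0 mitochondrial and 0 cytosolic members (limma), and 0.0055% of all genes were called. The PAT effect was larger in females in 76 of 76 mitochondrial members. The median of this sex difference was 0.32, against 0.07 for the cytosolic class and 0.03 for all genes (0.11 for genes with a mean of at least 6). Members share the same arrays, so counts of direction, here and in the other comparisons, are not separate pieces of evidence. When the quantile normalization was repeated 75 of 76 were positive, with a median of 0.24. At an unadjusted p under 0.05 there were 50 mitochondrial and 4 cytosolic members, and 3383 genes in all. The smallest adjusted p among mitochondrial members belonged to Mrps28, with a difference of 0.56 ± 0.134 (limma adjusted p = 0.10). It read 9.79, 9.84, 9.65, 9.89 and 9.64 in control males and 9.64, 9.62, 9.53, 9.70 and 9.93 in PAT males, beside the female values above. Mrpl45, a protein of the polypeptide exit site, differed by 0.54 ± 0.142 and Mrpl42 by 0.49 ± 0.137 (limma adjusted p = 0.11 and 0.12). For the cytosolic Rpl14 the difference was 0.59 ± 0.151 (limma adjusted p = 0.11). The crypt markers went the same way, with 6 of 6 positive and a median of 0.73. So did all measured Paneth cell markers, from 0.21 for Lyz1 to 1.02 for Pla2g2a. Plasma cell markers were mixed, from -0.29 for Sdc1 to 1.62 for Mzb1. Goblet cell markers were all negative, from -0.29 for Clca1 to -0.09 for Zg16. None of these markers passed the test in limma, and their part in the result was not tested.

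**Figure D3:**
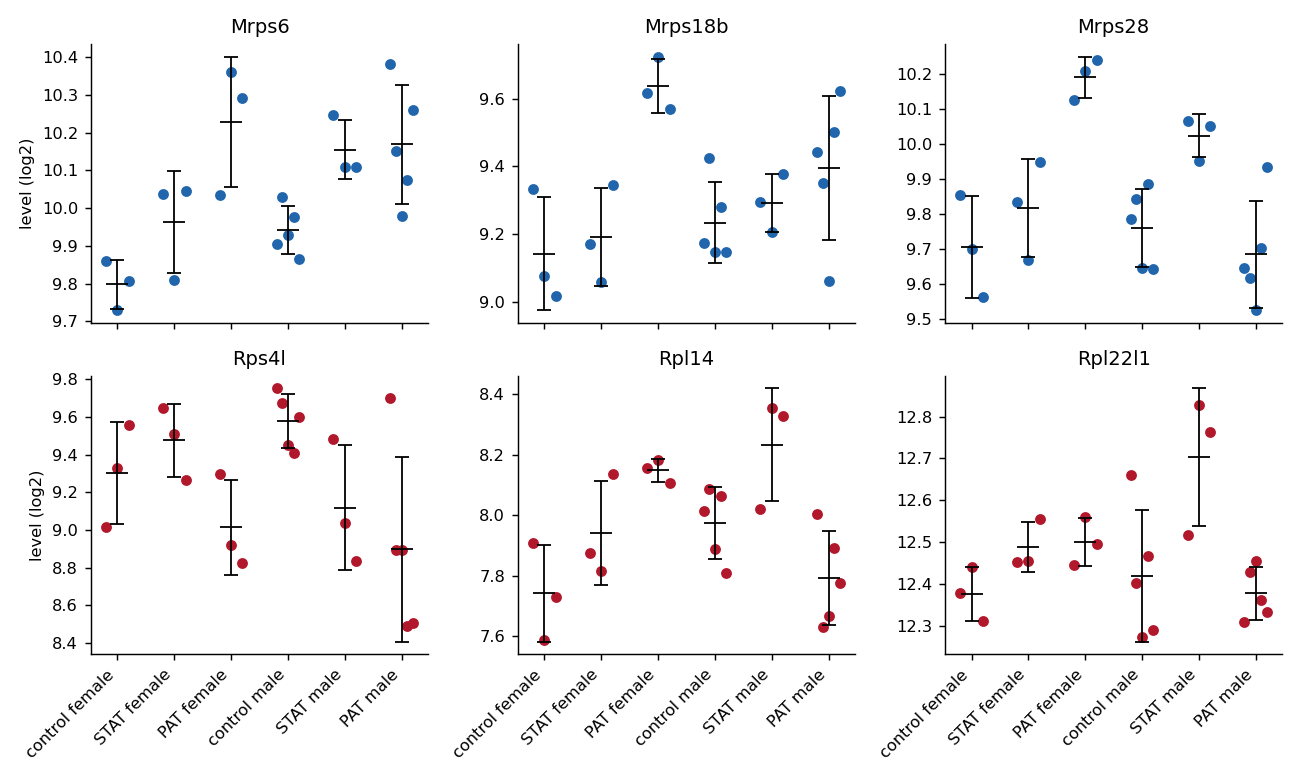
Level (log2, vertical axes) of 6 named members on every array by group; points are arrays, and bars are the mean ± SD of the group. In the Mrps28 panel the PAT females (10.13 to 10.24) lie above all control females, while PAT males (9.53 to 9.93) overlap with control males. In the Rps4l panel 4 of 5 PAT males lie below every control male.

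Genes around the mitochondrial ribosome, taken from lists, were set beside the members. The 4 mitochondrial ribosomal proteins with other names that were measured (Dap3, Ptcd3, Chchd1 and Gadd45gip1) were positive in 4 of 4 in PAT females, with a median of 0.24, and in 0 of 4 in PAT males, with a median of -0.12. None of the 4 passed the test in limma in either sex. Of 21 measured factors of mitochondrial ribosome assembly and translation, 19 were positive in PAT females with a median of 0.22. Of these 1 rose: Noa1, a GTPase of small-subunit assembly, by 0.55 ± 0.091 (limma adjusted p = 0.003). In PAT males 4 of 21 were positive, with a median of -0.08, and 2 fell: Mterf4 by 0.36 and its partner Nsun4, the ribosomal RNA methyltransferase, by 0.33. The sex difference was positive in 21 of 21 with a median of 0.34, and 0 were called.

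Regulators of mitochondrial biogenesis were less uniform. Of 9 measured, 8 were positive in PAT females with a median of 0.22 and 0 called. In PAT males 4 of 9 were positive and 2 rose: Nrf1, a transcription factor of nuclear genes for mitochondrial proteins, by 0.46 ± 0.103, and the coactivator Ppargc1a by 0.53 ± 0.162 (limma adjusted p = 0.010 and 0.043). Gabpa, the ETS factor that binds the motif shown above, differed by 0.17 ± 0.097 in females (limma adjusted p = 0.33).

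The companions of the cytosolic ribosome moved little with PAT. Rplp0, Rplp2, Rpsa and Fau, ribosomal proteins with other names, had medians of 0.03 in females and -0.04 in males, with 0 of 4 called. Of 14 other transcripts known for TOP starts, mostly translation factors, 0 were called in either sex, with medians of 0.005 and -0.07. Of 12 measured genes of mTORC1 and the S6 kinases, 0 were called in females. In males Tsc1, an inhibitor of mTORC1, fell by 0.35 ± 0.086 (limma adjusted p = 0.015). In females Tsc1 differed by a similar -0.34 ± 0.111 without passing the test (limma adjusted p = 0.089). Its sex difference was 0.01. The class medians of the list were 0.003 and -0.07.

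STAT was compared with control to learn how the sub-therapeutic treatment acted. Of all 18193 genes 0.0% were called in either sex or on average (limma), so 0 of the 123 members were. At an unadjusted p under 0.05 there were 0 cytosolic and 0 mitochondrial members in females, 9 and 12 in males and 8 and 13 on average. Over all genes there were 602, 2852 and 2391. The differences were small and mostly positive in both classes. In females 42 of 47 cytosolic members were positive with a median of 0.05, and in males 44 of 47 with a median of 0.08. For all genes the medians were 0.006 and -0.008. The mitochondrial class had 63 of 76 positive with a median of 0.05 in females and 62 of 76 with a median of 0.08 in males.

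On the deposited scale the cytosolic members with a mean of at least 12 had 1 direction: 33 of 33 were positive in females, from 0.007 to 0.12, and 33 of 33 in males, from 0.01 to 0.29. That division at 12 was chosen after the levels had been seen. Every STAT female lay above every control female in 13 of 47 cytosolic members (27.7%), against 4.79% of all genes, and in 4 of 76 mitochondrial members. The reverse held in 1 member of each class, Rpl3l and Mrpl55, against 5.1% of all genes. Every STAT male lay above every control male in 10 of 47 (21.3%), against 2.53%, and in 5 of 76. The reverse held in 0 members, against 3.64%. The members share the same arrays, so they are not separate pieces of evidence.

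Rpl37, a zinc-binding large-subunit protein, read 10.68, 10.40, 9.99, 10.24 and 10.13 in control males and 10.56, 10.82 and 10.89 in STAT males. STAT male 1 lay within the control range and STAT males 2 and 3 above it. The difference in males was 0.47 ± 0.133 (limma adjusted p = 0.12). Rpl22l1, the paralog of Rpl22, read 12.66, 12.40, 12.27, 12.47 and 12.29 in control males and 12.52, 12.83 and 12.76 in STAT males, a difference of 0.29 ± 0.088 (limma adjusted p = 0.14). Again STAT male 1 was among the controls. Mrpl28 (0.22 ± 0.074) and Mrpl52 (0.30 ± 0.103) had the smallest p among mitochondrial members in males (limma adjusted p = 0.15 and 0.16).

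STAT males 2 and 3, which stood apart in the beta-actin measure of RNA integrity, were the high arrays for both Rpl37 and Rpl22l1. Without STAT male 1, which left only those 2, 4 cytosolic and 5 mitochondrial members were called in males, and 4 and 1 on average. The share of all genes called in these fits is not given here, so the counts have no background beside them. Without STAT males 2 and 3, 0 were called in either class, and 36 of 47 cytosolic members were positive in males with a median of 0.04. The deviations of the cytosolic class were 0.01 to 0.08 in STAT males, -0.07 to 0.01 in control males, 0.01 to 0.07 in STAT females and -0.03 to 0.01 in control females. Fibroblast and smooth muscle markers were positive in 5 of 5 each in both sexes, with medians of 0.16 and 0.25 in females and 0.38 and 0.21 in males. Enterocyte markers were positive in 1 of 7 in both sexes. Crypt markers averaged 9.34 to 9.87 in STAT males and 9.13 to 9.58 in control males, with differences from 0.19 for Cdk1 to 0.52 for Mki67. In females these markers averaged 9.01 to 9.55 with STAT and 9.14 to 9.46 in controls. Their part in the result was not tested. The difference between the sexes in the STAT effect was called in 0 members (limma), and 0 members had an unadjusted p under 0.05.

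**Figure D4:**
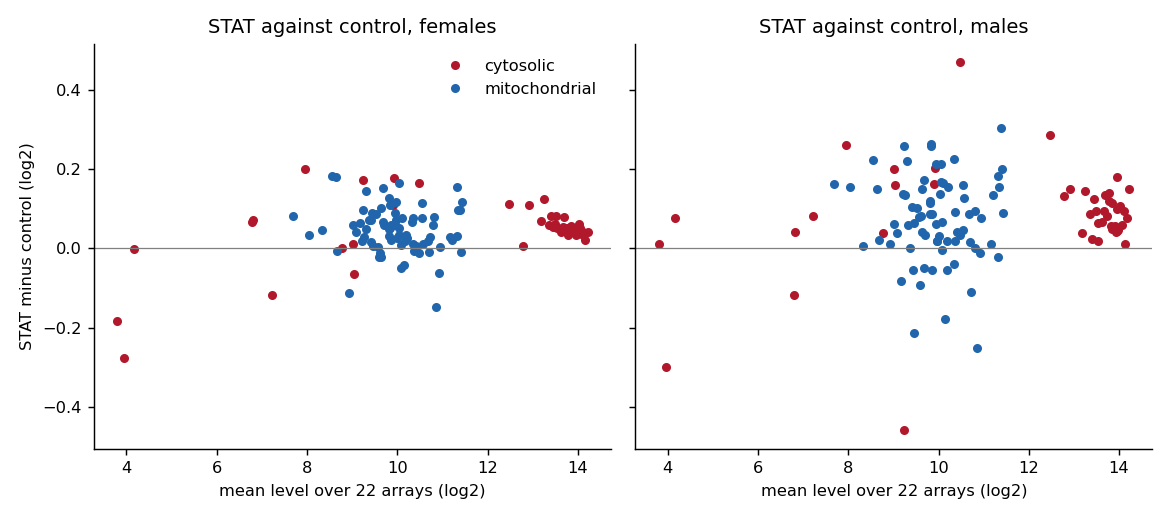
STAT minus control (log2, vertical axis) against the mean level over 22 arrays (log2, horizontal axis) for each of the 123 genes, in females and in males. Cytosolic genes with a level of at least 12 lie above 0 in both panels, between 0.007 and 0.12 in females and between 0.01 and 0.29 in males, and members of lower level scatter on both sides of 0.

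PAT was also set against STAT directly. In females the mitochondrial members were again higher with PAT: 72 of 76 were positive, with a median of 0.18 against -0.008 for cytosolic members and -0.006 for all genes. All 3 PAT females lay above all 3 STAT females in 43 of 76 mitochondrial members (56.6%). The same held for 11.2% of all genes and 14.9% of those with a mean of at least 6. Of the 47 cytosolic members 4 were above all STAT females (8.51%; Rpl12, Rps16, Rps19bp1 and Rps25) and 3 below them all (6.38%; Rps7, Rps27 and Rps29), against 11.2% of all genes in each direction. By the test 1 member rose (1.32%, against 0.528% of all genes that rose and 0.335% that fell). It was Mrpl55, a large-subunit protein found in animals, which read 8.78, 8.75 and 8.84 in STAT females and 9.41, 9.34 and 9.18 in PAT females. It rose by 0.51 ± 0.116 (limma adjusted p = 0.038), and against control females it differed by 0.40 ± 0.116 (limma adjusted p = 0.058). Over all genes 96 rose and 61 fell, and with the quantile normalization repeated 239 were called, 130 of them lower. The Mrpl55 call was lost in 5 of the 6 fits without 1 array, all but the one without PAT female 3. Crypt markers went the same way, with 6 of 6 positive, a median of 0.54 and 0 called, and averaged 9.01 to 9.55 in STAT females against 9.65 to 9.95 in PAT females. B cell markers were positive in 4 of 4 with 0 called and averaged 4.75 to 4.88 against 4.78 to 6.92. The PAT females were uneven here, with a mean of 5.51 ± 1.22 (SD, n = 3) against 4.81 ± 0.066 (n = 3) in STAT females. Smooth muscle and fibroblast markers were negative in 5 of 5 each, with medians of -0.49 and -0.20 and 0 called. The part of these cells in the result was not tested. PAT females are common to this comparison and the one with controls, so their values are not independent.

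In males both classes were lower with PAT than with STAT. Of the 47 cytosolic members 3 fell (6.38%) and of the 76 mitochondrial members 5 fell (6.58%), against 5.24% of all genes that fell and 3.47% that rose, so neither share was far from the background. The medians were -0.11 and -0.15, against 0.006 for all genes and -0.06 for genes with a mean of at least 6. Every PAT male lay below every STAT male in 12 of 47 cytosolic (25.5%) and 13 of 76 mitochondrial members (17.1%). The same held for 7.08% of all genes and 10.2% of those with a mean of at least 6. The reverse held in 0 members, against 4.51%.

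Rpl14 read 8.02, 8.36 and 8.33 in STAT males and 8.01, 7.63, 7.67, 7.89 and 7.78 in PAT males. All PAT males were lower, and the difference was -0.44 ± 0.107 (limma adjusted p = 0.017). Rps6, the substrate of the S6 kinases, read 9.91, 10.30 and 10.28 against 9.91, 9.73, 9.77, 10.06 and 9.70, a difference of -0.33 ± 0.098 (limma adjusted p = 0.039). Its groups overlapped through STAT male 1, and its other probe set gave 0.10. Rpl22l1 fell by 0.33 ± 0.088 (limma adjusted p = 0.026), with 12.52, 12.83 and 12.76 against 12.31, 12.43, 12.46, 12.36 and 12.33. Its partner Rpl22 was not called in this comparison.

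Mrps9, with a bacterial S9 counterpart, read 9.99, 10.11 and 10.13 in STAT males and 9.63, 9.59, 9.64, 9.77 and 9.73 in PAT males, with no overlap. The difference was -0.41 ± 0.095 (limma adjusted p = 0.012), and all 4 of its probe sets were negative. Mrps28 fell by 0.34, Mrpl38 by 0.33, Mrps15 by 0.29 and Mrpl28 by 0.27. Mrpl38 had a further probe set at 0.05 and Mrps15 one at 0.02.

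These male calls were lost without STAT male 2, without STAT male 3 or without both, with 0 cytosolic and 0 mitochondrial members called. The differences of the 7 members named next stayed negative. Without both arrays the mitochondrial median was -0.20 and the cytosolic -0.06. Mrps9 then differed by -0.32, Mrps28 by -0.38 and Mrpl38 by -0.38, while Rpl14 differed by -0.23, Rpl22l1 by -0.14, Mrps15 by -0.12 and Rps6 by -0.08, each against 1 STAT male that is assumed to vary like the other groups. The mitochondrial count was 9 without STAT male 1, 10 without PAT male 5, 3 without PAT male 2 and 2 without PAT male 3. For these fits too the share of all genes called is not given here. Crypt markers were lower with PAT in 6 of 6, with Mki67, Top2a and Birc5 called, and averaged 9.34 to 9.87 in STAT males and 8.75 to 9.58 in PAT males. Enterocyte markers were higher in 7 of 7 with 5 called, smooth muscle markers lower in 5 of 5 with 1 called, and fibroblast markers lower in 5 of 5 with 2 called. The part of these cells in the result was not tested. Averaged over the sexes 0 members of either class were called in PAT against STAT (limma), with 8 cytosolic and 7 mitochondrial members at an unadjusted p under 0.05, against 3760 of all 18193 genes. By the adjusted p 2.89% of all genes rose there and 2.98% fell.

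Among the measured paralogs of cytosolic ribosomal proteins, Rps4l and Rpl22l1 had the calls already given and the others passed no limma test. Rpl7l1 differed by 0.32 ± 0.112 in PAT females (limma adjusted p = 0.10), and Rpl7 by -0.01 ± 0.074. Rpl39l and Rpl39 differed by -0.02 and 0.06. Rpl3l differed by -0.29 ± 0.091 with STAT averaged over the sexes (limma adjusted p = 0.25), at levels between 3.56 and 4.49, near the bottom of the scale. Rps27l, a target of p53, stayed between 12.63 and 12.93 on all arrays.

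Outside the classes, the genes whose arrays varied most like each class within the groups were found by correlating deviations from the group means over the same 22 arrays. For the mitochondrial class they were Uqcc2 (r = 0.965), Bola3 (0.945), Bola2 (0.930), Pfdn6 (0.922) and Clpp (0.916). For the cytosolic class they were Esrp2 (0.894), Cep192 (0.876), Trmt10c (0.870), Huwe1 (0.861) and Msh6 (0.858). The points share arrays, so the scaling and RNA quality of each array enter both sides of these correlations.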

How the data were processed

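Biotin-labelled RNA was hybridised to 1-colour Affymetrix arrays, per the labels' protocols. The authors deposited log2 expression values for 45101 probe sets, and the submitters' processing notes name RMA and affy as the tools. Versions: not given in the sources used here. RMA gives no detection calls and understates changes of dim genes. Of the probe sets 34945 had 1 symbol, 932 several and 9160 none, 64 were array controls, and the platform annotation can be old.

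Group means of treatment and sex were fitted to all 22 arrays with limma 3.58.1 in R 4.3.3 (16 residual degrees of freedom), with Benjamini-Hochberg adjustment over 18193 genes and calls at adjusted p under 0.05, two-sided. The number of arrays limits the precision.

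Members and lists were chosen with earlier results of these data known. Named members were the 4 most changed called members per class and direction in each comparison, or the 3 with the smallest p where fewer than 3 were called, the brightest and dimmest, paralogs, and members with a second role. Others are named because a sentence singles them out after their values were seen. Alternatives changed the probe sets, filter, scaling, arrays fitted, covariates and each array in turn.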

Additional observations from a re-analysis of the deposited data

Results flagged for a closer look

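Dixon's test was run on 70 groups of 5 male arrays for the named members, and 4 had 1 array far from the others. Chance alone flags about 1 in 20 such groups. PAT male 5 was high for Mrpl20, at 10.6591 against 10.2388 to 10.3571 on the other 4 arrays. The same array was high for Mrpl51, at 11.5423 against 11.1825 to 11.2790. Control male 1 was high for Mrps15, at 10.4094 against 10.1497 to 10.2238. Control male 5 was low for Rpl7l1, at 9.7581 against 9.8639 to 9.8766, where the other 4 arrays lay close together. Groups of 3 arrays could not be tested in this way.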

How the results depend on the processing

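The alternatives changed counts of called members more than directions. In females the mitochondrial median with PAT stayed positive under all 9 alternatives and all 6 fits without 1 array, and the calls did not. The counts below are members called, and the cause of each change was not tested except where fewer genes or arrays entered the fit. They stand without the share of all genes called under the same alternative. A changed count is therefore not shown to be particular to the members.

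For PAT against control averaged over the sexes, the cytosolic count of 1 became 2 with the mean of probe sets, 2 with probe sets of plain names and 0 with the Gapdh covariate. The mitochondrial count of 9 became 5 with the mean of probe sets, 14 with quantile normalization repeated and 1 with the Gapdh covariate. In females the cytosolic count of 0 became 1 with genes of mean at least 6, 1 with only the groups compared and 2 with a term for high title numbers. The mitochondrial count of 12 became 7 with plain names, 20 with genes of mean at least 6, 7 with quantile normalization repeated, 2 with only the groups compared, 0 with the Gapdh covariate and 7 without STAT males 2 and 3. In males the cytosolic count of 1 became 2 with the mean of probe sets, 3 with plain names, 0 with only the groups compared and 0 with the Gapdh covariate. The mitochondrial count of 1 became 0 with plain names, the groups compared or the Gapdh covariate, and 2 with genes of mean at least 6 or the title term.

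For PAT against STAT averaged over the sexes, the cytosolic count of 0 became 2 with the title term, and the mitochondrial count of 0 became 1 with genes of mean at least 6, quantile normalization repeated or the title term. In females the cytosolic count of 0 became 1 with the title term, and the mitochondrial count of 1 became 0 with plain names, columns centred, the groups compared or the Gapdh covariate, and 4 with the title term. In males the cytosolic count of 3 became 7 with the mean of probe sets, 5 with genes of mean at least 6, 0 with the groups compared, 1 with the title term and 0 without STAT males 2 and 3. The mitochondrial count of 5 became 9 with genes of mean at least 6, 3 with quantile normalization repeated, 0 with the groups compared, 1 with the title term and 0 without STAT males 2 and 3, where the lone STAT male is assumed to vary like the other groups.

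Leaving out 1 array at a time gave these ranges. For PAT against control the cytosolic counts were 0 to 2 on average, 0 to 1 in females and 0 to 1 in males, and the mitochondrial counts 4 to 12, 0 to 11 and 0 to 2. For STAT against control they were 0 to 4 on average, 0 to 0 in females and 0 to 4 in males (cytosolic), and 0 to 1, 0 to 0 and 0 to 5 (mitochondrial). For PAT against STAT they were 0 to 2, 0 to 0 and 0 to 4 (cytosolic), and 0 to 1, 0 to 1 and 0 to 10 (mitochondrial). The sex difference of PAT gave 0 to 0 cytosolic and 0 to 2 mitochondrial members.

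Some single genes changed sign with other probe sets. Rps9 with PAT in males went from -0.12 to 0.0193 with the mean of probe sets and 0.0887 with plain names. With plain names Mrpl38 went to -0.0742 with STAT on average, -0.18 with STAT in females and 0.0477 with PAT against STAT in males. The sex difference of STAT went to 0.0209 with the mean of probe sets and 0.0547 with plain names for Mrpl51, and to 0.00718 with plain names for Mrps9. Of the other alternatives for single named genes, 1176 kept their direction and side of the threshold, 123 lost a call and 32 gained one.

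No paired analysis was possible because the titles share no replicate number between groups and the replicate numbers follow accession order only. Groups of 3 arrays limit what a test can call, and dim members near the bottom of the scale have compressed differences. Compression of the bright cytosolic members near the top of the scale was not tested.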
